A study of Homo sapiens with 24 samples.

Results

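The comparison described here is a dose step of dexamethasone in prostate cancer cells kept under enzalutamide. It sets 3 arrays of cells given enzalutamide with dexamethasone 100 nM against 3 arrays of cells given enzalutamide with dexamethasone 10 nM, which are 6 of the 24 arrays of the series. The arrays were taken by their treatment labels. All arrays come from LREX' cells, a human prostate cancer line derived from an enzalutamide-resistant xenograft, in which the glucocorticoid receptor is abundant. Cells were grown in charcoal-stripped, steroid-depleted medium and treated for 8 h. The 8 groups of 3 arrays are vehicle (DMSO), dihydrotestosterone (DHT) 1 nM, dexamethasone 10 nM, dexamethasone 100 nM, enzalutamide 10 µM alone, and enzalutamide combined with DHT 1 nM, with dexamethasone 10 nM or with dexamethasone 100 nM. The labels give no enzalutamide dose for the combinations. The 3 cultures of a group are described as biological triplicates of this 1 line, so p-values measure the spread between cultures of that line.

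Dexamethasone is a synthetic glucocorticoid. It binds the glucocorticoid receptor, which moves to the nucleus, binds DNA at glucocorticoid response elements and raises or lowers transcription of nearby genes. DHT is an androgen, and enzalutamide blocks the response of cells to androgens. A set of prostate genes is known to respond to androgens and to glucocorticoids alike, and in prostate cancer the glucocorticoid receptor is known to maintain some androgen-responsive genes under androgen blockade. Genes are known to differ in the amount of ligand they need for their response.

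The arrays were Illumina expression beadchips of 47323 probes, and levels are given as log2 intensity after background correction and quantile normalization. The 6 arrays had median raw signals of 60.2 to 69.5, 20040 to 20605 detected probes, and pairwise correlations of 0.992 to 0.994 over the genes tested. The lowest detected level on them was 5 to 5.05 log2, so levels near 5 carry little information. Of 9 luminal epithelial markers on the arrays, all 9 (among them KRT8, KRT18, HOXB13 and FOXA1) were detected on all 6 arrays and none was called between the doses, with summed levels of 14.69 to 14.78 log2 at 10 nM and 14.57 to 14.8 log2 at 100 nM. The basal keratins KRT5, KRT14 and KRT15, the neuroendocrine genes SYP, CHGA, CHGB and NCAM1, the endothelial genes PECAM1 and CDH5 and the leukocyte genes PTPRC, CD3E and LYZ were not detected on any of the 6. INSM1 of the neuroendocrine list, CD14 of the immune list and COL1A2 and DCN of the stromal list were detected on some of the 6 and not on all. VIM, COL1A1 and VWF, on the list for stroma and endothelium, were detected on all 6; the summed level of that list was 9.71 to 9.77 log2 at 10 nM and 9.61 to 9.69 log2 at 100 nM, and none of its 5 tested genes was called.

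Raising dexamethasone from 10 to 100 nM under enzalutamide changed 66 of 12895 genes (0.512%) at an adjusted p under 0.05, and the direction was mostly upward. 61 genes rose (0.473%) and 5 fell (0.0388%). The largest rises were in SGK1, PNLIP, SNAI2, RASD1, ERRFI1 and SCNN1G, with fitted rises of 2.24 to 3.77-fold. PNLIP and SNAI2 lay near background at 10 nM, and their place in this order depends on the background step: without background correction they were at 1.04 and 1.02 log2, below TUBA3E at 1.07 log2. Arrays of whole cultures cannot tell fewer responding cells from less RNA per cell. The changes were otherwise small, with 33 of the 66 genes past 1.5-fold and the largest fall 1.39-fold. All 66 genes had levels at one dose that did not overlap those at the other, which 10.6% of all tested genes also had. The test was limma's moderated test on the contrast of the groups, fitted over all 24 arrays with Benjamini-Hochberg adjustment. It gave 818 genes at an unadjusted p under 0.05, 444 higher and 374 lower, and a median standard error of 0.12 log2.

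The calls, and not only those near the threshold, depended on which arrays, and how many, were in the fit and on the spread shared across groups. Fitted on the 6 arrays alone, the same contrast called 8 genes, all higher and all among the 66. The log2 differences were unchanged, but genes with small adjusted p-values in the full fit lost the call. By limma SCNN1G went from 6.58e-05 to 0.0642, SLC45A3 from 6.34e-05 to 0.0784 and FKBP5 from 0.00207 to 0.382. Leaving out replicate 2 of the 100 nM group gave 36 calls, leaving out replicate 1 of the 10 nM group gave 43, and leaving out its replicate 3 gave 42. Whichever 1 of the 6 arrays was left out, 28 of the 66 genes kept their call, and over all 66 genes the log2 difference without an array lay between 0.739 and 1.28 times its full value.

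**Figure D1:**
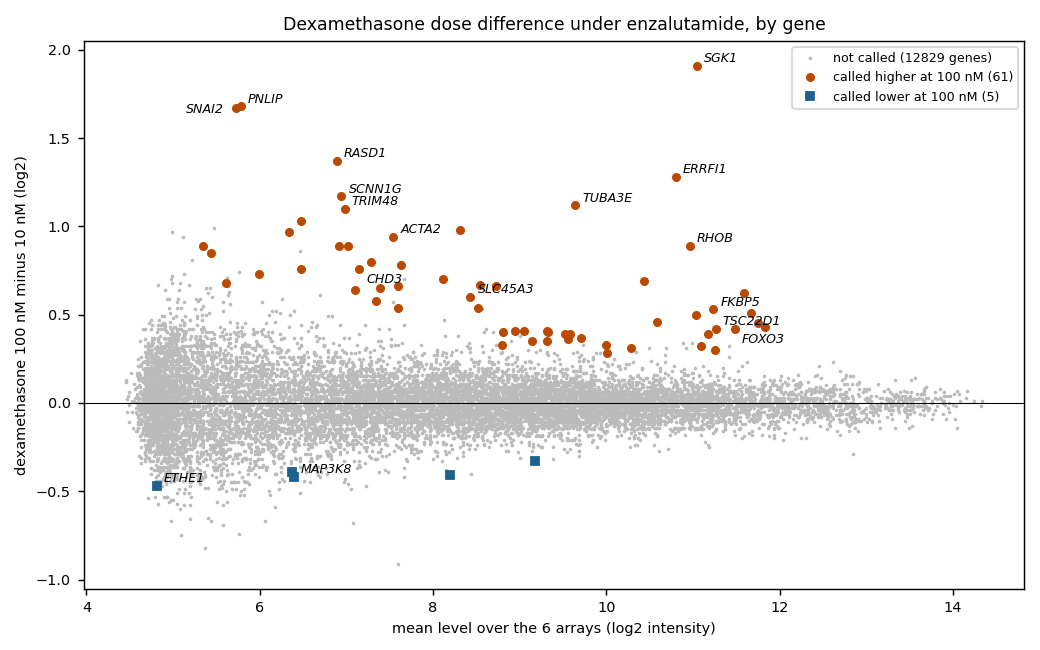
Each point is 1 of 12895 genes. The x axis is the mean level over the 6 arrays (log2 intensity) and the y axis is the difference of dexamethasone 100 nM minus 10 nM under enzalutamide (log2). The 61 genes called higher (orange circles) reach 1.91 log2 for SGK1, and the 5 called lower (blue squares) lie between -0.47 and -0.33 log2.

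SGK1 encodes a serum- and glucocorticoid-regulated kinase that, among other roles, keeps the epithelial sodium channel at the cell surface. Its level was 5.78, 5.27 and 5.88 log2 on the 3 arrays of enzalutamide alone, 10.05, 10.13 and 10.05 log2 with dexamethasone 10 nM, and 11.96, 11.97 and 12.04 log2 with 100 nM. The 3 groups did not overlap, and the arrays of a dexamethasone group lay within 0.1 log2 of each other. From 10 to 100 nM SGK1 rose by 1.91 ± 0.12 log2 (SE, n = 3 a group), 3.77-fold, with an adjusted p of 4.12e-09 by limma. The other 2 SGK1 probes gave 2.04 and 2.02 log2.

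SCNN1G, the gamma subunit of the epithelial sodium channel, was at 5.4, 5.23 and 5.55 log2 with enzalutamide alone. It was at 6.06, 6.44 and 6.57 log2 with 10 nM and at 7.52, 7.67 and 7.39 log2 with 100 nM. The dose groups did not overlap, and SCNN1G rose by 1.17 ± 0.13 log2, 2.24-fold (adjusted p = 6.58e-05), with a second probe at 1.12 log2. In the list of SGK and sodium transport genes, these 2 of 16 measured members rose and none fell. The list's median difference was 0.1 log2 against 0 over all genes tested. Of all genes tested 0.473% rose, which is the reference for each list count given here. Lists share members, SGK1 and SCNN1G among them, so their counts are not independent.

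SNAI2 encodes Slug, a zinc finger repressor known for its role in epithelial-mesenchymal transition. It was at 4.45, 4.42 and 4.54 log2 with enzalutamide alone and at 4.87, 4.85 and 4.95 log2 with 10 nM, not detected on any of those 6 arrays. With 100 nM it was at 6.59, 6.62 and 6.47 log2, detected on all 3. Measured against the lowest detected level on this background-corrected scale, SNAI2 was at least 2.88-fold higher at 100 nM than at 10 nM (fitted adjusted p = 1.54e-10). The bound holds for that scale only: the fitted difference of 1.67 log2 was 1.02 log2 without background correction, which is under the bound, and 2.3 log2 in the deposited normalized values, and SNAI2 was called in both. Its second probe gave a smaller difference of 0.9 log2.

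CEBPD, the transcription factor C/EBP delta, was at 8.9, 8.61 and 8.69 log2 with enzalutamide alone, 10.2, 10.12 and 9.92 log2 with 10 nM and 10.81, 10.7 and 10.81 log2 with 100 nM. On the log2 scale most of its rise was present at 10 nM, and the step to 100 nM added 0.69 ± 0.09 log2, 1.62-fold (adjusted p = 0.000167). ZBTB16, the zinc finger factor PLZF, had the same shape from a baseline whose probe was not detected. Its levels of 4.5, 4.48 and 4.49 log2 with enzalutamide alone went to 6.94, 7.04 and 7.21 log2 with 10 nM and 7.62, 7.86 and 7.66 log2 with 100 nM. The dose step was 0.65 ± 0.13 log2, 1.57-fold (adjusted p = 0.017). The probes of ZBTB16 disagreed, with the other 2 at -0.35 and 0.69 log2, and averaging all 3 ended the call at 0.33 log2.

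KLF9, a Krüppel-like factor induced by glucocorticoids in many tissues, rose by 0.3 ± 0.06 log2, 1.23-fold (adjusted p = 0.0365). TSC22D3, which encodes the anti-inflammatory protein GILZ, was at 9.04, 9.22 and 8.87 log2 with 10 nM and 9.35, 9.36 and 9.29 log2 with 100 nM. Its groups did not overlap, but the difference of 0.29 ± 0.08 log2 missed the threshold (adjusted p = 0.179), and among the settings tried it passed only without replicate 2 of the 10 nM group, at 0.38 log2. PER1, a clock repressor with a strong glucocorticoid response elsewhere, varied widely, at 4.74, 5.46 and 5.6 log2 with 10 nM and 5.94, 5.44 and 6.56 log2 with 100 nM. The groups overlapped and its difference was 0.71 ± 0.23 log2 (adjusted p = 0.373). TIPARP, a mono-ADP-ribosyltransferase, differed by 0.22 ± 0.08 log2 (adjusted p = 0.504).

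SPSB1, an adaptor of a ubiquitin ligase, was at 5.36, 5.15 and 4.91 log2 with enzalutamide alone, 7.04, 7.33 and 7.19 log2 with 10 nM and 7.74, 7.71 and 7.16 log2 with 100 nM. Its dose difference of 0.35 ± 0.19 log2 missed the threshold (adjusted p = 0.793). The list of glucocorticoid-induced regulators, to which these genes belong, had 14 of 29 measured members (of 30 listed) rise and none fall. Its median difference was 0.42 log2, with 24 of 29 above 0, against a median of 0 over all genes, of which 6253 of 12895 were above 0. This list and the other gene lists used here were drawn up with earlier results of these arrays known. Their counts and directions are therefore descriptions.

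Of the genes that restrain growth factor and kinase signalling 4 rose. ERRFI1, an inhibitor of the EGF receptor, was at 9.02, 9.04 and 9.15 log2 with enzalutamide alone, 10.06, 10.13 and 10.3 log2 with 10 nM and 11.31, 11.48 and 11.53 log2 with 100 nM. The groups formed 3 separate steps of similar height, and the upper step was 1.28 ± 0.09 log2, 2.42-fold (adjusted p = 1.71e-08).

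RASD1, a Ras-related GTPase first described as dexamethasone-induced, showed most of its change at the higher dose. It was at 6.26, 5.32 and 5.81 log2 with enzalutamide alone, 6.01, 6.21 and 6.39 log2 with 10 nM and 7.55, 7.62 and 7.56 log2 with 100 nM. The lower 2 groups overlapped (10 nM minus enzalutamide alone 0.41 log2, adjusted p = 0.446), while the step to 100 nM was 1.37 ± 0.18 log2, 2.59-fold (adjusted p = 0.000271). Without enzalutamide, 10 nM was called for RASD1 against vehicle by limma (0.9 log2, adjusted p = 0.00819). DUSP1, the phosphatase that switches off p38 and JNK, followed the same course as RASD1 under enzalutamide. Its levels were 8, 8.2 and 8.02 log2 with enzalutamide alone, 8.15, 8.38 and 8.08 log2 with 10 nM and 8.9, 8.91 and 8.83 log2 with 100 nM. It rose by 0.67 ± 0.09 log2 between the doses, 1.6-fold (adjusted p = 0.000305), and its difference of 10 nM from enzalutamide alone was 0.13 log2 (adjusted p = 0.712).

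SOCS2, a suppressor of cytokine and growth hormone signalling, was at 7.36, 7.21 and 7.44 log2 with 10 nM and 7.97, 7.79 and 7.84 log2 with 100 nM, and rose by 0.54 ± 0.11 log2 (adjusted p = 0.0195). The list of EGFR and MAPK feedback genes had these 4 of 16 members rise and none fall, against 0.473% of all genes that rose. Its median was 0.05 log2. ERRFI1, DUSP1 and RASD1 are also on the list of glucocorticoid-induced regulators, where the same calls were counted. DDIT4, an inhibitor of mTORC1 induced by glucocorticoids and by stress, was at 11.29, 11.29 and 11.27 log2 with 10 nM and 11.93, 11.95 and 11.84 log2 with 100 nM. It rose by 0.62 ± 0.08 log2, 1.54-fold (adjusted p = 0.000189), and was the single member called among 19 genes of growth, survival and mTORC1 control, whose median was 0.14 log2.

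FKBP5 encodes a co-chaperone that binds the receptor complex and lowers its affinity for hormone, and it responds to both hormones. Its promoter is shown because its window holds 1 of the few matches to the receptor half-site among the genes that rose. The strand shown is the gene's own (minus), chr6:35728564-35728733 of GRCh38.p14 from RefSeq, 150 bases before the annotated start and 20 after it, with the match in capitals.
FKBP5: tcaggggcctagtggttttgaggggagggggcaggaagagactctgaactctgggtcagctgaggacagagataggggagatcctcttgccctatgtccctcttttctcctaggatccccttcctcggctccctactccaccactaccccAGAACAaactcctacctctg
FKBP5 was at 9.43, 9.57 and 9.43 log2 with enzalutamide alone, 11.07, 10.89 and 10.95 log2 with 10 nM and 11.69, 11.33 and 11.46 log2 with 100 nM. The lower dose gave a change of 1.49 log2 and the higher dose 2.02 log2. The step between them was 0.53 ± 0.08 log2, 1.44-fold (adjusted p = 0.00207).

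NR3C1, the glucocorticoid receptor gene itself, was at 6.55, 6.4 and 6.8 log2 with enzalutamide alone, 6.21, 5.93 and 5.8 log2 with 10 nM and 5.48, 5.09 and 5.9 log2 with 100 nM. It was lower than with enzalutamide alone at 100 nM, by 1.1 log2 (adjusted p = 0.00105). The dose groups overlapped and the difference of -0.49 ± 0.19 log2 missed the threshold (adjusted p = 0.6). A second probe, detected on 1 of the 6 arrays, gave 0.15 ± 0.16 log2. FKBP5 was the single gene called among 15 steroid receptors, chaperones and cofactors, whose median was -0.03 log2.

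HSD11B2, the enzyme that inactivates cortisol, was at 8.6, 8.58 and 8.82 log2 with enzalutamide alone, 9.44, 9.32 and 9.39 log2 with 10 nM and 9.8, 9.82 and 9.7 log2 with 100 nM. The 3 groups did not overlap, and the dose step was 0.39 ± 0.07 log2, 1.31-fold (adjusted p = 0.0128). It was the only call among 13 genes of steroid metabolism, whose median was 0.02 log2.

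**Figure D2:**
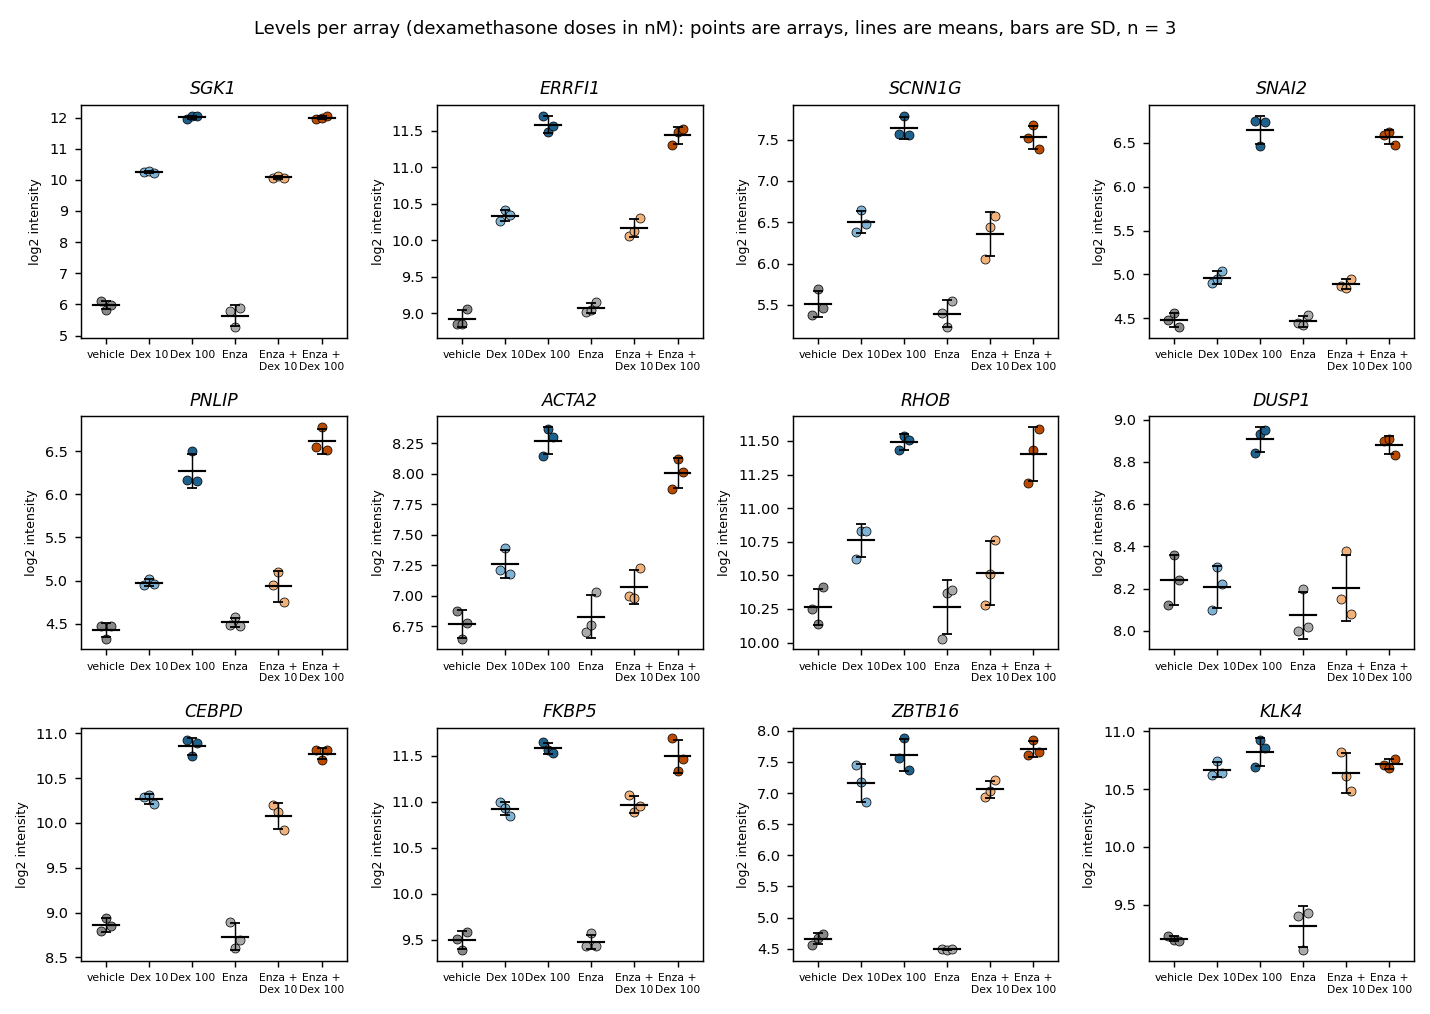
Levels (log2 intensity) of 12 genes on the 3 arrays of each of 6 groups, with dexamethasone doses in nM. Points are arrays, lines are means and bars are SD (n = 3). SGK1 and ERRFI1 climb in separate steps, SNAI2, PNLIP, ACTA2 and DUSP1 make most of their change between 10 and 100 nM, and KLK4 differs by 0.08 log2 between the doses under enzalutamide.

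In the actin cytoskeleton 3 genes rose with the dose, and for none of them was the difference of 10 nM from enzalutamide alone called (0.24, 0.19 and 0.07 log2 for ACTA2, FHL2 and CCN1). Without enzalutamide, 10 nM was called against vehicle by limma for ACTA2 (0.49 log2, adjusted p = 0.0153) and FHL2 (0.58 log2, adjusted p = 0.00835). CCN1 was not called there (0.15 log2, adjusted p = 0.477). ACTA2, smooth muscle actin, had the other promoter shown here for a half-site match, chr10:88991338-88991487 of GRCh38.p14 from RefSeq, the 150 bases before its annotated start on its own (minus) strand, with TGTTCT, which is AGAACA read on the other strand, in capitals.
ACTA2: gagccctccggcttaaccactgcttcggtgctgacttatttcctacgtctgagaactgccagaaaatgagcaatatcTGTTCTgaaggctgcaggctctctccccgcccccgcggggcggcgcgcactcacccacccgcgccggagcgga
ACTA2 was at 6.7, 6.76 and 7.03 log2 with enzalutamide alone, 7, 6.98 and 7.23 log2 with 10 nM and 7.88, 8.12 and 8.02 log2 with 100 nM. The first 2 groups overlapped (0.24 log2, adjusted p = 0.451), and all 100 nM arrays lay above both. Between the doses ACTA2 rose by 0.94 ± 0.11 log2, 1.91-fold (adjusted p = 6.58e-05).

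RHOB, an endosomal small GTPase, was at 10.03, 10.37 and 10.39 log2 with enzalutamide alone, 10.28, 10.51 and 10.76 log2 with 10 nM and 11.19, 11.43 and 11.59 log2 with 100 nM. It rose by 0.89 ± 0.13 log2 between the doses, 1.85-fold (adjusted p = 0.000839), against 0.25 log2 for 10 nM over enzalutamide alone (adjusted p = 0.556). FHL2, a LIM-domain transcriptional cofactor, was at 6.2, 6.51 and 6.43 log2 with enzalutamide alone, 6.59, 6.56 and 6.58 log2 with 10 nM and 7.42, 7.45 and 7.53 log2 with 100 nM. It rose by 0.89 ± 0.12 log2, 1.86-fold (adjusted p = 0.000271), and a second probe gave 1.05 log2.

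CCN1, a secreted matricellular protein and a target of the actin-linked coactivators YAP and MRTF, was at 6.7, 6.82 and 6.83 log2 with 10 nM and 7.57, 7.27 and 7.42 log2 with 100 nM. It rose by 0.64 ± 0.08 log2, 1.56-fold (adjusted p = 0.000267). ACTA2, FHL2 and CCN1 were the 3 of 13 actin cytoskeleton genes that rose. None fell, and the list's median was 0.13 log2 with 12 of 13 members above 0.

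Secreted and surface proteins made up another part of the response. PNLIP, pancreatic lipase, was at 4.49, 4.58 and 4.48 log2 with enzalutamide alone, where it was not detected, and at 4.95, 5.1 and 4.75 log2 with 10 nM, where 1 of 3 arrays detected it. With 100 nM it was at 6.55, 6.78 and 6.51 log2, detected on all 3 and at least 3.01-fold above enzalutamide alone. Its fitted dose step was 1.68 ± 0.1 log2 (adjusted p = 2.72e-09), which depends on levels near background at 10 nM and was 1.04 log2 without background correction and 2.31 log2 in the deposited normalized values.

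S100P, a calcium-binding protein, was at 6.23, 5.92 and 5.73 log2 with 10 nM and 6.98, 7 and 6.98 log2 with 100 nM, a rise of 1.03 ± 0.22 log2, 2.04-fold (adjusted p = 0.0312). CRISPLD2, a secreted glycoprotein and glucocorticoid target, was at 4.98, 4.95 and 5.13 log2 with 10 nM, detected on 1 of 3 arrays, and at 5.85, 5.88 and 5.87 log2 with 100 nM. Its rise was 0.85 ± 0.13 log2, 1.8-fold (adjusted p = 0.0013), and 0.48 log2 without background correction. With SCNN1G, PNLIP and HSD11B2 these were the 5 of 17 measured glucocorticoid-induced enzymes and secreted or surface proteins (of 28 listed) that rose, with none falling and a median of 0.17 log2.

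The 15 largest fitted rises also held 2 solute carriers. SLC25A18, a mitochondrial glutamate carrier, was at 5.87, 5.79 and 5.9 log2 with 10 nM and 7.01, 6.56 and 6.9 log2 with 100 nM, and rose by 0.97 ± 0.13 log2, 1.95-fold (adjusted p = 0.000289). SLC26A3, an intestinal chloride-bicarbonate exchanger, was at 4.92, 4.64 and 5.11 log2 with 10 nM, detected on 1 of 3 arrays, and at 5.57, 5.66 and 6.12 log2 with 100 nM. Its fitted rise of 0.89 ± 0.2 log2 (adjusted p = 0.043) lost the call whichever of the 6 arrays was left out, at 0.73 to 1 log2, and without background correction, at 0.53 log2.

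Of the androgen-induced genes 4 rose with the dose. DHT served as the check of the block: added to enzalutamide it called none of 12895 genes (0%) by limma, with 427 at an unadjusted p under 0.05, and it moved KLK2 by -0.04 ± 0.14 log2, SLC45A3 by 0.17 ± 0.07 log2 and TMPRSS2 by 0.1 ± 0.11 log2 (adjusted p = 1 for each). Without enzalutamide, the fitted DHT response of the same 3 genes was 2.16, 2.67 and 2.3 log2.

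KLK2, a kallikrein protease of the prostate, was at 4.56, 4.52 and 4.65 log2 with enzalutamide alone, where it was not detected, at 5.73, 5.46 and 5.71 log2 with 10 nM and at 6.17, 6.57 and 6.34 log2 with 100 nM. It was at least 1.52-fold above enzalutamide alone at 10 nM and at least 2.52-fold at 100 nM, and between the doses it rose by 0.73 ± 0.14 log2, 1.65-fold (adjusted p = 0.0155), and by 0.46 log2 without background correction, still called. SLC45A3, the solute carrier known as prostein, was at 6.94, 6.82 and 6.86 log2 with enzalutamide alone, 8.09, 8.16 and 8.15 log2 with 10 nM and 8.81, 8.72 and 8.67 log2 with 100 nM. It rose between the doses by 0.6 ± 0.07 log2, 1.51-fold (adjusted p = 6.34e-05).

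KLK4, another kallikrein, was not called between the doses. It was at 9.4, 9.11 and 9.43 log2 with enzalutamide alone, 10.82, 10.61 and 10.48 log2 with 10 nM and 10.71, 10.68 and 10.76 log2 with 100 nM. Both doses raised it over enzalutamide alone, by 1.32 and 1.4 log2 (adjusted p = 1.25e-08 and 2.39e-09). The difference between the doses was 0.08 ± 0.09 log2, with a 95% interval of -0.11 to 0.27 log2 (adjusted p = 0.967).

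TMPRSS2, a membrane protease and the usual fusion partner of ERG in prostate cancer, was at 8.85, 8.41 and 8.32 log2 with 10 nM and 8.78, 8.83 and 8.58 log2 with 100 nM, a difference of 0.2 ± 0.11 log2 (adjusted p = 0.805). NDRG1, a stress- and androgen-responsive gene, differed by 0.34 ± 0.09 log2 (adjusted p = 0.148), PMEPA1, an inhibitor of TGF-beta signalling, by 0.39 ± 0.14 log2 (adjusted p = 0.504), and the epithelial factor GRHL2 by 0.23 ± 0.11 log2 (adjusted p = 0.78). KLK3, which encodes PSA, was detected on 2 of 3 arrays at 10 nM and 1 of 3 at 100 nM, and its difference of -0.07 ± 0.26 log2 changed sign to 0.03 log2 under median scaling and 0.09 log2 in the deposited normalized values, never called.

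PTGER4, a prostaglandin E2 receptor, was at 5.28, 5.4 and 5.13 log2 with 10 nM and 5.89, 5.96 and 6 log2 with 100 nM, and rose by 0.68 ± 0.12 log2, 1.6-fold (adjusted p = 0.00733), with 0.39 log2 without background correction. RHOU, an atypical small GTPase, rose by 0.39 ± 0.08 log2, 1.31-fold (adjusted p = 0.0373), on top of 1.82 log2 at 10 nM. KLK2, SLC45A3, PTGER4 and RHOU were the 4 of 26 measured androgen-induced genes (of 34 listed) called, all higher, and the list's median was 0.21 log2 with 19 above 0. None of 15 androgen-repressed genes was called by limma, with 7 lower and 0 higher at an unadjusted p under 0.05. Over all 12895 genes, 374 were lower and 444 higher at that threshold. The androgen-repressed list had a median of -0.14 log2 and 2 members above 0.

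Among 16 clock genes CRY2, a cryptochrome repressor, was the only call. Its levels were 8.16, 8.35 and 8.23 log2 with 10 nM and 8.64, 8.77 and 8.96 log2 with 100 nM, a rise of 0.54 ± 0.1 log2 (adjusted p = 0.00733), beside a list median of 0.03 log2. No call was made by limma among 6 metallothioneins (0 at an unadjusted p under 0.05, median 0.04 log2), 18 genes of glucose and amino acid uptake (0 at an unadjusted p under 0.05, median 0.02 log2) or 23 genes of DNA replication and mitosis (3 lower and 0 higher at an unadjusted p under 0.05, median -0.01 log2). Over all 12895 genes, 374 were lower and 444 higher at that threshold.

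Alpha-tubulin genes of the TUBA3 family rose as a group of near-identical copies. TUBA3E was at 6.67, 6.96 and 6.57 log2 with enzalutamide alone, 9.11, 9.08 and 9.05 log2 with 10 nM and 10.31, 10.3 and 10 log2 with 100 nM, and its dose step was 1.12 ± 0.11 log2, 2.17-fold (adjusted p = 6.18e-06). TUBA3C rose by 0.98 ± 0.16 log2 (adjusted p = 0.00293) and TUBA3D by 0.51 ± 0.08 log2 (adjusted p = 0.00349). Probes of these paralogs can bind each other's RNA, so which copy changed is uncertain. TRIM48, a tripartite motif protein of a multigene family, rose by 1.1 ± 0.16 log2, 2.14-fold (adjusted p = 0.000839), and the pseudogene transcript GRM5P1 by 0.89 ± 0.16 log2, 1.85-fold (adjusted p = 0.00733), and both may share signal with relatives.

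Only 5 genes fell between the doses. MAP3K8, the kinase Tpl2 of inflammatory MAPK signalling, was at 7.09, 7.05 and 7.01 log2 with enzalutamide alone, 6.63, 6.59 and 6.6 log2 with 10 nM and 6.2, 6.12 and 6.23 log2 with 100 nM. The 3 groups stepped down without overlap, and the dose step was -0.42 ± 0.08 log2, a 1.34-fold fall (adjusted p = 0.0154). It was the only call among 11 NF-kB and inflammatory genes, whose median was 0.

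SGMS1, a sphingomyelin synthase, was at 6.45, 6.74 and 6.5 log2 with 10 nM and 6.21, 6.14 and 6.17 log2 with 100 nM, and fell by 0.39 log2 ± 0.08 (adjusted p = 0.017). CTDSP2, a small phosphatase of the RNA polymerase II tail, was at 9.36, 9.33 and 9.36 log2 with 10 nM and 8.9, 9.04 and 9.12 log2 with 100 nM, and fell by 0.33 log2 ± 0.07 (adjusted p = 0.0279). CCDC93, a subunit of an endosomal recycling complex, fell by 0.41 log2 ± 0.09 (adjusted p = 0.0389), with a second, dimmer probe at -0.09 log2. ETHE1, a mitochondrial sulfur dioxygenase, lay at the detection limit, at 5.08, 4.95 and 5.1 log2 with 10 nM and 4.59, 4.56 and 4.57 log2 with 100 nM, where no array detected it. It was at least 1.01-fold lower at 100 nM, with a fitted difference of -0.47 ± 0.1 log2 (adjusted p = 0.0388).

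The remaining called genes all rose and lie outside the rule by which genes were named, so those singled out here were chosen after their values were seen. Besides TUBA3D they comprised 3 regulators, namely KLF15 (0.66 log2, adjusted p = 0.0334), a Krüppel-like factor, NFKBIA (0.45 log2, adjusted p = 0.0309), the inhibitor of NF-kB, and FOXO3 (0.42 log2, adjusted p = 0.000839), a forkhead factor. The keratin KRT80 (0.8 log2), C9orf152 (0.78 log2), TSPYL2 (0.76 log2), CHD3 (0.76 log2), ADPRM (0.7 log2), the G-protein regulator RGS2 (0.66 log2) and the RNase ZC3H12A (0.58 log2) rose most. The others were PRR15L, EEF2K, RDH10, TSC22D1, ABHD2, SNHG17, TSKU, HERC5, PDE9A, PLPP6, KBTBD11, LRRFIP2, PLLP, TUBB2A, MTMR9, SYBU, ZMIZ1, PRKCD and FBXO31, between 0.28 and 0.5 log2. CHD3 was at a mean of 7.32 log2 with enzalutamide alone, 6.77 log2 with 10 nM and 7.52 log2 with 100 nM. Against enzalutamide alone it differed by -0.55 log2 at 10 nM and 0.21 log2 at 100 nM (adjusted p = 0.166 and 0.647 by limma). Its second probe gave a dose difference of 0.05 log2. KLF15, NFKBIA, ZC3H12A, TSC22D1 and MTMR9 lost the call whichever of the 6 arrays was left out, KLF15 at 0.59 to 0.71 log2 and NFKBIA at 0.42 to 0.48 log2.

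Set against enzalutamide alone, the lower dose changed 139 genes (1.08%), 115 higher (0.892%) and 24 lower (0.186%). The higher dose changed 439 (3.4%), 287 higher (2.23%) and 152 lower (1.18%), in the same fit. Both comparisons use the same 3 arrays of enzalutamide alone. The steps of single genes had different shapes. SGK1 was 4.43 log2 above enzalutamide alone at 10 nM and 6.35 log2 at 100 nM, and ERRFI1 was 1.09 and 2.37 log2 above it. ACTA2 was 0.24 and 1.17 log2 above it, and RHOU 1.82 and 2.21 log2.

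**Figure D3:**
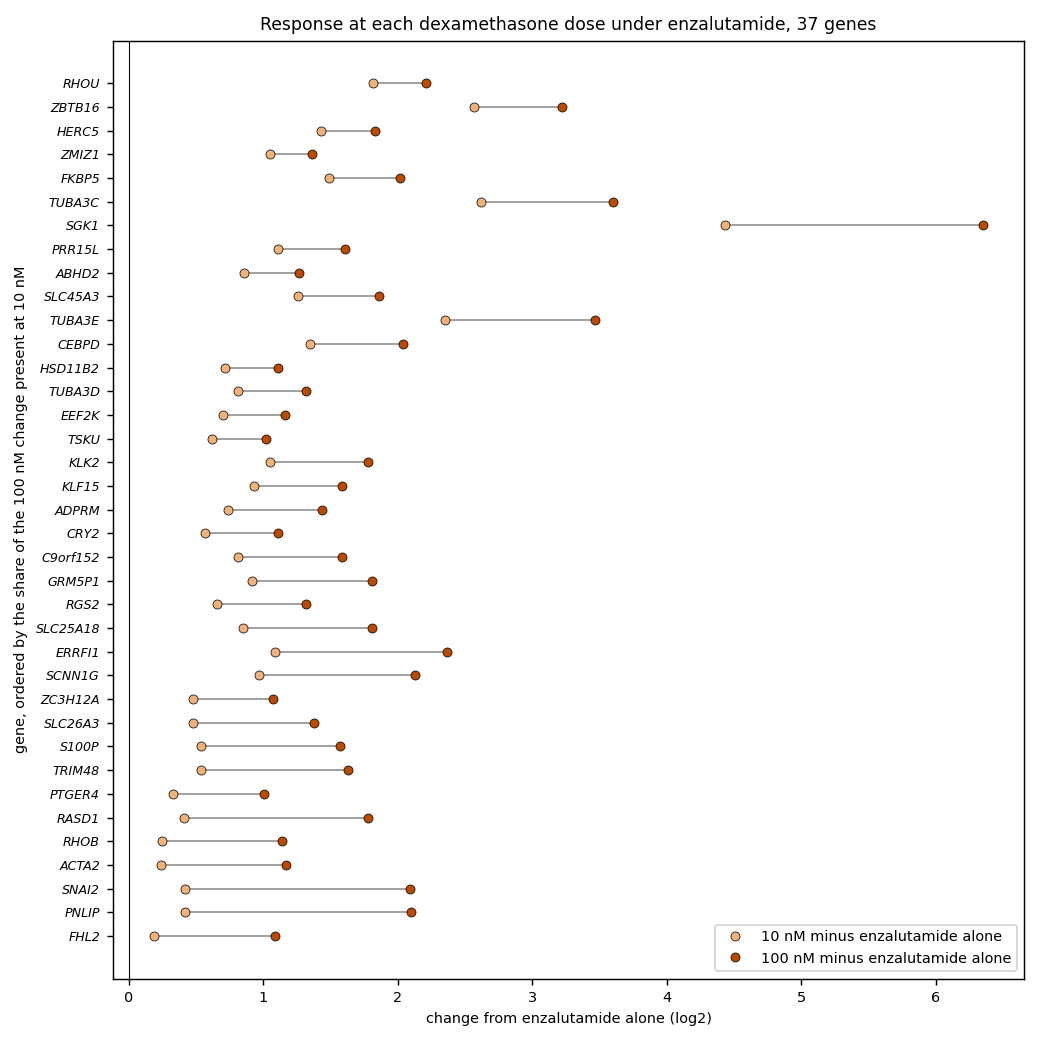
For 37 genes called by dose under enzalutamide and raised by at least 1 log2 at 100 nM with and without it, the x axis gives the change from enzalutamide alone (log2) at 10 nM (light points) and 100 nM (dark points). Genes on the y axis are ordered by the share of the 100 nM change present at 10 nM, from 17.8% for FHL2 at the bottom to 82.5% for RHOU at the top.

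The shape was expressed as the 10 nM change in percent of the 100 nM change, both on the log2 scale, for the 65 genes called and raised by at least 1 log2 at 100 nM in both settings, over enzalutamide alone or over vehicle. Under enzalutamide the share ranged from 17.8% to 108% with a median of 67.8%, and without enzalutamide from 22.4% to 104% with a median of 67.2%. FHL2 (17.8%), PNLIP (19.9%), SNAI2 (20.2%), ACTA2 (20.4%), RHOB (22%) and RASD1 (23%) had the lowest shares under enzalutamide. Without enzalutamide the same genes, in that order, had 43.1%, 29.9%, 22.4%, 32.5%, 40.1% and 41.5%, and SNAI2 and PNLIP were the 2 genes under 30% in both settings. On this log2 scale SCNN1G (45.3%) and ERRFI1 (46.1%) were intermediate. SGK1 (69.8%), FKBP5 (74%), ZBTB16 (79.8%), RHOU (82.5%), SPSB1 (85.3%) and KLK4 (94.2%) were high. A share on the log2 scale is not the part of the signal reached at 10 nM. SGK1 was 21.6-fold above enzalutamide alone at 10 nM and 81.5-fold at 100 nM, and ERRFI1 2.13-fold and 5.17-fold. BRINP1 (101%) and the testis bromodomain gene BRDT (108%), picked after their values were seen, had changes at 10 nM no smaller than at 100 nM.

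The order of genes by this share was similar in both settings, which have no array in common. Across the 65 genes Pearson's r was 0.874 and Spearman's coefficient 0.864, and across the 44 genes whose probe was detected on every array of enzalutamide alone and vehicle they were 0.87 and 0.899. Genes are not independent replicates, so these values describe the gene set. The probes of SNAI2, PNLIP, KLK2 and ZBTB16 were among those detected on no array at baseline. Their shares, 20.2%, 19.9%, 59.2% and 79.8% under enzalutamide and 22.4%, 29.9%, 71.5% and 84.7% without it, rest on baseline levels near background and are no bounds. The probe of SPSB1 was detected on 2 of 3 arrays of enzalutamide alone, at a mean of 5.14 log2. Its share under enzalutamide also rests on a level near background.

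**Figure D4:**
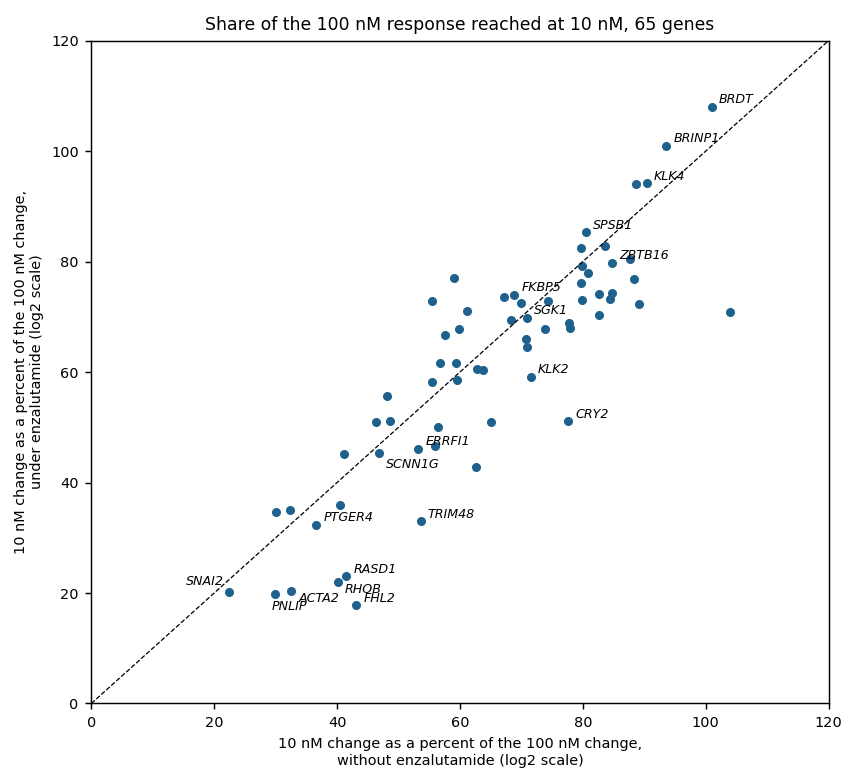
Each point is 1 of 65 genes. Both axes give the 10 nM change as a percent of the 100 nM change on the log2 scale, without enzalutamide (x) and under it (y), and the dashed line marks equal shares. SNAI2, PNLIP and ACTA2 lie at the lower left, and KLK4, BRINP1 and BRDT at the upper right.

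The same dose step without enzalutamide set 3 arrays of dexamethasone 100 nM against 3 of 10 nM. The medium was steroid-depleted and none of these dexamethasone groups, with or without enzalutamide, was given DHT. Both settings together thus compare enzalutamide present or absent, and not blocked against active androgen signalling. Without enzalutamide the dose step changed 84 genes (0.651%), 75 higher (0.582%) and 9 lower (0.0698%). Of these, 51 were also called under enzalutamide, all in the same direction, which is 77.3% of the 66 and 60.7% of the 84. The calls of both settings share each gene's spread estimate from the fit over all 24 arrays, so they are not fully independent. All 66 genes called under enzalutamide had the same sign without it, and the 61 that rose had a median of 0.62 log2 under enzalutamide and 0.58 log2 without it. For CHD3, SNHG17, CTDSP2, ETHE1 and SGMS1 the sign without enzalutamide rests on values near 0 (0.01, 0.01, -0.01, -0.04 and -0.07 log2). The 75 genes that rose without enzalutamide had a median of 0.5 log2 under it, 73 of them above 0. The overlap was 31 without replicate 2 of enzalutamide with 100 nM, 30 without replicate 3 of enzalutamide with 10 nM, and 33 without replicate 2 of dexamethasone 100 nM alone. The call count without enzalutamide was 45 without that last array and 53 without replicate 3 of dexamethasone 10 nM, and 14 when fitted on its own 6 arrays.

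The difference between the dose steps was tested directly in the same fit. It called none of 12895 genes (0%) by limma, with 656 at an unadjusted p under 0.05 and a smallest adjusted p of 0.573, and none when fitted on the 12 arrays alone. SGK1 rose by 1.91 log2 under enzalutamide and 1.75 log2 without it, a difference of 0.16 ± 0.16 log2 with a 95% interval of -0.18 to 0.5 log2. ERRFI1 differed by 0.04 log2 (interval -0.21 to 0.29) and SNAI2 by -0.02 log2 (interval -0.25 to 0.22). Over the 36 genes called under enzalutamide and named by the rule, which do not include CHD3, the largest difference was 0.43 log2 in size, the median width of the interval was 0.62 log2, and 31 intervals included 0. The other 5 were PNLIP (0.39 log2), ETHE1 (-0.43 log2), SGMS1 (-0.32 log2), CTDSP2 (-0.32 log2) and SLC45A3 (-0.3 log2), with adjusted p-values of 0.864 to 0.96. Intervals of this width do not show that the responses are equal.

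**Figure D5:**
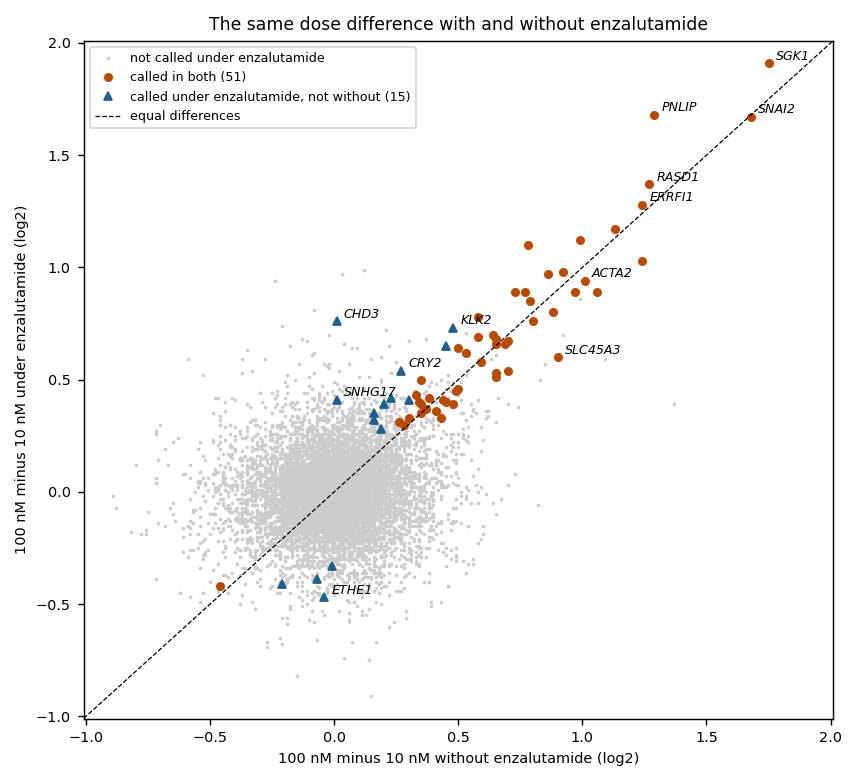
Each point is 1 of 12895 genes. The x axis is the difference of dexamethasone 100 nM minus 10 nM without enzalutamide and the y axis the same difference under it (both log2), and the dashed line marks equal differences. The 51 genes called in both (circles) lie near the line, and of the 15 called under enzalutamide and not without it (triangles) CHD3 and SNHG17 lie farthest above it, close to 0 on the x axis.

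SLC45A3 rose by 0.9 ± 0.07 log2 without enzalutamide and by 0.6 log2 under it. PMEPA1 rose by 0.7 ± 0.14 log2 without it (adjusted p = 0.0153) and differed by 0.39 log2 under it, with a difference between the settings of -0.32 ± 0.2 log2 whose interval ran from -0.73 to 0.1 log2. KLK2 passed under enzalutamide (0.73 log2) and not without it (0.48 log2, adjusted p = 0.209), and the difference of 0.25 ± 0.2 log2 had an interval of -0.17 to 0.66 log2. CRY2 likewise passed at 0.54 log2 under enzalutamide and not at 0.27 log2 without it (interval of the difference -0.01 to 0.56 log2). CHD3, chosen after its values were seen, showed 0.76 log2 under enzalutamide and 0.01 log2 without it, and the difference of 0.74 ± 0.23 log2 had an interval of 0.26 to 1.23 log2 and an adjusted p of 0.864.

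To relate the dose step to hormone class, genes were picked on arrays outside the 6, by their response to dexamethasone 100 nM or DHT against vehicle without enzalutamide. The picking calls and the dose calls share each gene's spread estimate from the fit over all 24 arrays, so they are not fully independent. Dexamethasone changed 655 genes (5.08%), 372 higher (2.88%) and 283 lower (2.19%), and DHT changed 548 (4.25%), 316 higher (2.45%) and 232 lower (1.8%). Of the 372, 59 rose with the dose under enzalutamide (15.9%, against 0.473% of all genes), and 333 had a difference above 0, with a median of 0.18 log2. The 59 are all but 2 of the 61 genes that rose. The 2 were CHD3 and SNHG17, a small nucleolar RNA host gene.

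Of the 169 genes raised by both hormones 43 rose with the dose (25.4%, median 0.24 log2), among them SGK1, SNAI2, ERRFI1, RASD1, FKBP5 and CEBPD. Of the 201 raised by dexamethasone and not called with DHT 14 rose (6.97%, median 0.14 log2), namely PNLIP, SCNN1G, S100P, ACTA2, FHL2, C9orf152, TSPYL2, DUSP1, RGS2, CCN1, PLLP, TUBB2A, SYBU and KLF9. For SCNN1G, ACTA2 and DUSP1 the DHT response was -0.34, 0.16 and 0.05 log2. The whole response to 100 nM over enzalutamide alone also differed in size, with a median of 0.67 log2 in the class raised by both hormones and 0.36 log2 in the class not called with DHT, and its part in the 25.4% and 6.97% was not tested. The 2 genes raised by dexamethasone and lowered by DHT, DDIT4 and KRT80, both rose with the dose. None of 147 genes raised by DHT and not called with dexamethasone was called by limma, with 12 higher and 3 lower at an unadjusted p under 0.05. Over all 12895 genes, 444 were higher and 374 lower at that threshold. The median of the 147 was 0.03 log2. Among the 283 genes lowered by dexamethasone 2 fell with the dose, SGMS1 and MAP3K8, and the median was -0.08 log2.

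Promoters from RefSeq (GRCh38.p14, 250 bases before to 50 after each annotated start) were matched for 45 of the 61 genes that rose and all 5 that fell. The full palindromic glucocorticoid response element, the half-site AGAACA followed by 3 free bases and its reverse TGTTCT, was in 0 of these 45 and in 0 of 10228 promoters of tested genes. The half-site alone, searched on both strands, was in 4 of the 45 (8.89%), those of ACTA2, C9orf152, FKBP5 and SNHG17, and in 939 of the 10228 (9.18%). Among the 5 genes that fell it was in the promoter of ETHE1. In ACTA2 the match begins 73 bases before the annotated start, and in FKBP5 it begins at the start itself. A match describes letters in this window and not a bound site.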

How the data were processed

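The authors deposited a raw signal intensity for every probe, averaged over its beads, and a detection p-value that sets it against the array's negative controls, per the file headers. Bead numbers (median 18 to 21 per probe) were deposited too. The submitters' processing notes name GenomeStudio without a version. Normalized intensity values that the authors also deposited, with no method stated, served as an alternative.

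Background was corrected by normexp from the detection p-values (offset 16), followed by quantile normalization and log2 transformation (limma 3.58.1, R 4.3.3). The platform annotation gave 1 symbol for 30113 of 47323 probes, several for 8 and none for 17202; Entrez identifiers matched 30074 probes in RefSeq (GRCh38.p14), with 0 symbols changed. A probe was kept if 3 or more arrays detected it at p under 0.05 (24607 probes, 17590 with a symbol), and the brightest represented each of 12895 genes. The number of arrays limits the precision.

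Group means of 24 arrays were fitted with lmFit and eBayes, with Benjamini-Hochberg adjustment within each contrast; ± is the standard error. "At least" folds set a group's mean against the lowest signal detected on each array of the undetected group. Named were the 15 largest rises and up to 10 largest falls, up to 6 called members of each gene list and a fixed panel: 47 genes in all. The members and lists were chosen with earlier results of these data known. Alternatives covered background correction, scaling, filter, probe choice, arrays in the fit, left-out arrays and a replicate block. Scripts were tested on simulated data.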

Additional observations from a re-analysis of the deposited data

How the results depend on the processing

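The dose step under enzalutamide gave 59 to 73 calls under median scaling, the deposited normalized values, no background correction, an offset of 50, no detection filter, a stricter filter, the mean of a gene's probes and the replicate block. Fits on the 6 compared arrays gave 8 calls under enzalutamide and 14 without it, where fewer samples estimate the spread. Leaving out 1 array gave 36 to 52 calls under enzalutamide, 45 to 81 without it, an overlap of 30 to 44, and 305 to 352 calls at 100 nM against enzalutamide alone, with each count at 10 nM within 1.5 times of 139. The difference between the dose steps gave 0 calls in each of these fits. No called result changed sign. The correlation of dose shares stayed between 0.84 and 0.926.

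Of the 36 named called genes 16 lost the call without at least 1 array: CCDC93, CRY2, CTDSP2, ETHE1, GRM5P1, HSD11B2, KLF9, KLK2, MAP3K8, PTGER4, RHOU, S100P, SGMS1, SLC26A3, SOCS2 and ZBTB16. ETHE1 and SLC26A3 lost it without any 1 of the 6, ETHE1 at -0.51 to -0.44 log2 and SLC26A3 at 0.73 to 1 log2. ETHE1 was at -0.08 log2 in the deposited values and SLC26A3 at 0.49 log2 with an offset of 50, both not called.

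Arrays fall into 3 sets by the numbers in their titles, and the labels do not say that a set shares a day or batch. Arrays of the same set in the enzalutamide dose groups had deviations correlated at 0.201, 0.0306 and 0.241, and those of different sets at -0.229 to 0.036. Not every same-set value passed 0.1, so the sets were not taken as pairs, although 0.201 and 0.241 lay above every value of different sets. The array of set 2 at 10 nM correlated slightly better with set 1 at 100 nM than with its own set. In the dose groups without enzalutamide same-set values were 0.115, 0.000964 and 0.0601, and those of different sets -0.108 to 0.0423. The replicate block gave 73 calls under enzalutamide (63 of the 66 among them), 89 without it, 0 for their difference, 179 at 10 nM and 542 at 100 nM. A block by beadchip was not run, because the column names used here name no chip. Signal over background limits genes near 5 log2.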
